A study of Caenorhabditis elegans with 9 samples.

Results

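UDP-glucuronosyltransferases were followed through RNA sequencing of whole Caenorhabditis elegans kept under a control, a high-fat and a high-fat plus farrerol condition. The family was taken as every protein-coding row of the deposited expression table whose gene name is ugt followed by a number, which gave 66 of 19997 protein-coding genes and of 46986 rows in all. Of these members, 60 were expressed at 1 FPKM (fragments for each kilobase of a gene, relative to library size) or more in at least 3 of the 9 libraries and were tested among 14730 genes. The groups were OP, the control, HFD, high fat that the series title says was induced with citrate, and FA, high fat together with farrerol, a flavanone from Rhododendron, with 3 libraries in each. The strain, age, doses and duration of treatment were not stated in the sources at hand, and the title poses the question of whether farrerol lowers fat through the transcription factor DAF-16. Control columns named OP50, the usual laboratory food strain of Escherichia coli, were taken, number by number, for the samples titled OP.

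UDP-glucuronosyltransferases are membrane enzymes of the endoplasmic reticulum that join a sugar from a UDP-sugar donor to small fat-soluble molecules, which makes them easier to dissolve and export. They act in the second phase of detoxification, after cytochrome P450 enzymes have oxidised a molecule and beside glutathione S-transferases. In nematodes many drugs are recovered as glucosides, so that UDP-glucose as well as UDP-glucuronate serves as a donor, and flavonoids with free hydroxyl groups are well-known substrates of the family in mammals. For most worm members neither the substrate nor the place of action is settled.

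All 66 members carry the UDP-glucuronosyltransferase domain PF00201 in the authors' annotation column. Their coding regions are alike in size, 501 to 558 codons, while the number of exons runs from 4 to 11. Chromosome V holds 41 of them, chromosome IV 12, chromosome I 5, X 4, III 3 and II 1, where 25% of all protein-coding genes are on V. Of the 66, 36 lie in 11 groups of neighbours whose starts are within 20 kilobases of each other. The largest such group spans 24.2 kilobases of chromosome V and holds ugt-12, ugt-11, ugt-9, ugt-10, ugt-8, ugt-14 and ugt-13. Exons of 11 members overlap the span of another protein-coding gene, in each case at an end of the member. How strand was used in counting is not given, so reads in these shared stretches cannot be told apart.

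The libraries held 17514542 to 21419867 reads on genes, of which the family took 19886 to 33343 reads. HFD replicate 1 and FA replicate 1 were the shallowest, with 17808607 and 17514542 reads. No label says whether replicates were grown as separate cultures, so p-values cover only the spread among these libraries, part of which may be technical. In whole animals fewer cells of a type and less RNA per cell cannot be told apart. Summed FPKM of 8 intestine markers was 4763 to 5250 in OP, 5176 to 9126 in HFD and 4673 to 10480 in FA, with 0 of 8 called, and limma called 5 of 6 oocyte and eggshell markers lower in HFD than in OP, with sums of 564.1 to 761 in OP, 213.8 to 295 in HFD and 125.2 to 262.4 in FA. Marker sums of every HFD and FA library were also above every control for pharynx (214.5 to 285.8 in OP, 287.1 to 424.8 in HFD and FA), neurons (306.8 to 313.4 and 327.7 to 416.3) and excretory cell and glia (130.3 to 143.4 and 158.4 to 204.8), with 1 marker of excretory cell and glia called higher in HFD and 0 of the others. Germline and sperm markers summed to 722.7 to 996.7 in OP, 618.5 to 705.9 in HFD and 511.4 to 729.7 in FA, with 0 of 8 called, and 0 of 8 hypodermis and 0 of 5 muscle markers were called. None of these markers was at 0 throughout, and their part in the differences below was not tested.

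A small set of members supplied much of the family's transcript. Over the 9 libraries 10 members averaged 20 FPKM or more, 24 averaged 10 or more and 38 averaged 5 or more. In OP the 5 highest, ugt-47, ugt-62, ugt-23, ugt-22 and ugt-58, made up 32.8% of the FPKM summed over the family. In both HFD and FA the order was ugt-22, ugt-44, ugt-62, ugt-47 and ugt-23, with 29.2% and 29.0% of the sum. The whole sum was 618.0 ± 58.5 FPKM in OP, 682 ± 46.1 in HFD and 706.8 ± 90.04 in FA (mean ± SD, n = 3 each), and the libraries of the 3 groups overlapped.

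The most abundant members had fold changes of either sign, and none of the 5 passed the test. Loss of ugt-22 is known to change the sensitivity of C. elegans to the anthelmintic albendazole. Its level was 41.9, 48.9 and 27.4 FPKM in OP, 63.7, 39.2 and 54.9 in HFD and 57.2, 45.9 and 58.1 in FA, and the groups overlapped. ugt-62 stood at 51.2, 46.1 and 42.2 FPKM in OP, 46.1, 32.6 and 34.3 in HFD and 48.9, 31.1 and 45.1 in FA, again with overlap. Of ugt-44 the libraries held 32.1, 26.8 and 19.3 FPKM in OP, 22.1, 49.5 and 69.6 in HFD and 20.5, 42.5 and 72.0 in FA.

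Replicate 1 of HFD and of FA thus sat within the OP range of ugt-44, and the other 4 libraries lay above it. ugt-47 was mostly lower on high fat, at 49.1, 47.5 and 44.4 FPKM in OP, 44.1, 23.4 and 27.6 in HFD and 46.1, 28.5 and 28.03 in FA, with replicate 1 of HFD and of FA close to the control. For ugt-23 the values were 38.1, 39.3 and 43.7 FPKM in OP, 39.1, 25.4 and 27.0 in HFD and 32.1, 37.2 and 21.0 in FA. Neighbours in the order of levels did not separate beyond this spread. In HFD against OP the log2 fold changes of ugt-22, ugt-62, ugt-44, ugt-47 and ugt-23 were 0.42, -0.31, 0.71, -0.60 and -0.42, with limma adjusted p from 0.169 for ugt-47 to 0.422 for ugt-44.

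**Figure D1:**
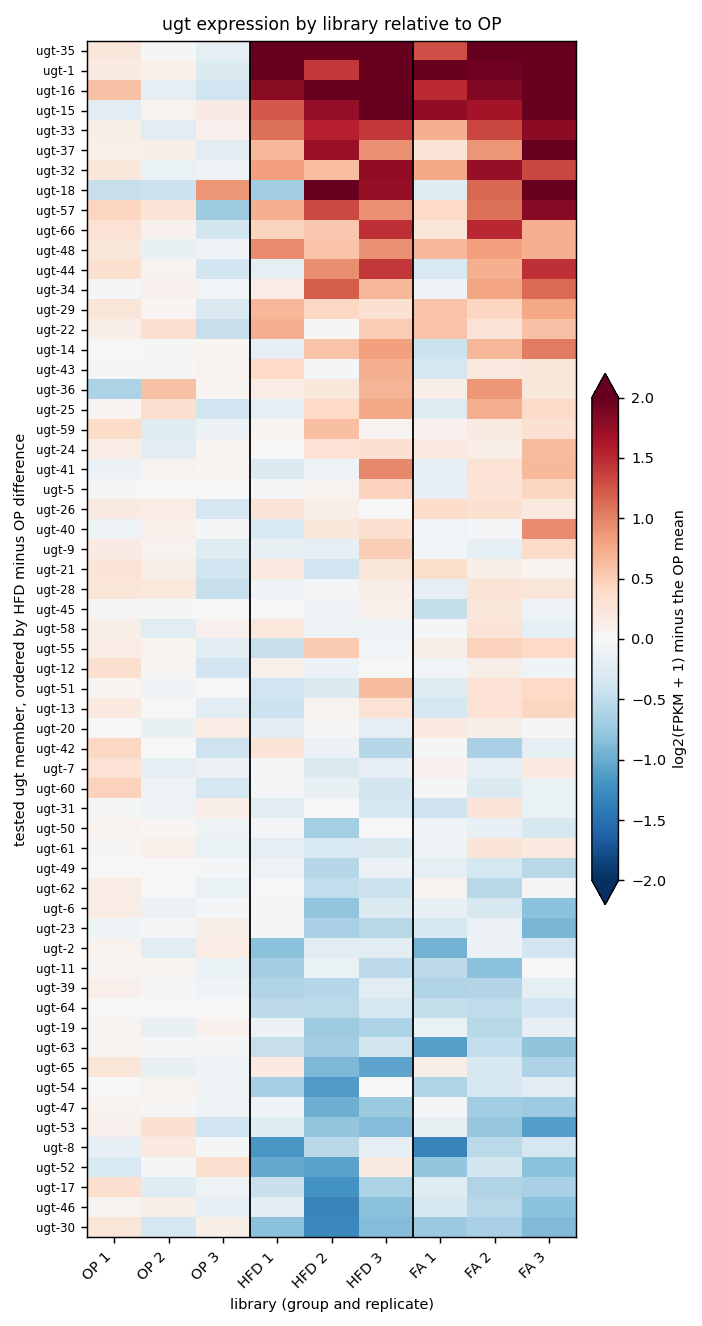
Rows are the 60 tested ugt members ordered by their HFD minus OP difference, columns are the 9 libraries, and colour gives log2(FPKM + 1) minus the mean of the 3 OP libraries, with the scale capped at 2 in each direction. ugt-35, ugt-1, ugt-16 and ugt-15 are high in all 6 HFD and FA libraries and ugt-30 is low in them, while members such as ugt-18 and ugt-44 are high in some of the 6 libraries and not in replicate 1.

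High-fat animals differed from controls in a handful of members. The transcripts of ugt-1, ugt-15, ugt-16, ugt-33 and ugt-48 rose and those of ugt-30 and ugt-64 fell, by limma on log2(FPKM + 1), the threshold being an adjusted p (Benjamini-Hochberg, over the 14730 genes) of 0.05. The 5 higher members are 8.33% of the 60 tested, beside 2.74% of all genes called higher in HFD, and the 2 lower ones are 3.33%, beside 4.62% called lower. Across the family the shift was balanced, 30 of 60 members having a log2 fold change above 0, with a median of 0.0007 against 0.014 for all genes. The sizes were larger than for the average gene, the median absolute log2 fold change being 0.417 in the family and 0.204 over all genes. Groups did not overlap for 23 of the 60, 12 higher and 11 lower in HFD, where 29.3% of all genes had no overlap. An unadjusted limma p under 0.05 was found for 21 of the 60, 14 of which did not pass the adjustment, and this is 35% of the members beside 21.9% of all genes.

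A filter on low values lets some members through by way of the group in which they are high. ugt-14, ugt-15, ugt-32, ugt-34 and ugt-35 had no OP library at 1 FPKM or more, and ugt-30 reached 1 FPKM in the OP libraries only, so these 6 could hardly enter the test without a difference. Among them ugt-15 and ugt-30 are counted in the called shares above. ugt-15, ugt-30, ugt-32 and ugt-35 are also counted among the members with an unadjusted limma p under 0.05. These and ugt-34 are counted among the members without overlap, and all 6 enter the median absolute log2 fold change. The all-gene shares rest on the same filter. Expression was at 1 FPKM or more in all 9 libraries for 44 members, among them ugt-1, ugt-16, ugt-33, ugt-48 and ugt-64. Left untested were ugt-3, ugt-4, ugt-10, ugt-27, ugt-38 and ugt-56, for which the highest value in any library was 1.61 FPKM, of ugt-4 in OP replicate 3.

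ugt-1 lies on chromosome V at 10395663 to 10397820 of WBcel235, on the plus strand. In OP it stood at 4.22, 3.92 and 2.80 FPKM, in HFD at 23.8, 11.3 and 20.3, and in FA at 24.7, 16.6 and 18.6. All 6 libraries on high fat were above all 3 controls, and the HFD and FA ranges overlapped. Mean expression was 5.07 times that of OP in HFD, with a log2 fold change of 2.02 (SE 0.26, limma adjusted p = 0.00202). Its neighbour ugt-2, which starts within the same group of 5.6 kilobases, was at 7.59, 6.11 and 8.07 FPKM in OP against 3.64, 6.08 and 6.02 in HFD, a log2 fold change of -0.42 that did not pass (limma adjusted p = 0.354).

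The neighbours ugt-18, ugt-16 and ugt-15 lie in this order on the plus strand within 9.9 kilobases of chromosome V, from 12820260 to 12830114. ugt-16 was at 9.31, 5.09 and 4.20 FPKM in OP, 22.98, 26.5 and 30.1 in HFD and 18.4, 23.9 and 43.4 in FA. ugt-15, which starts directly downstream of it, was at 0.260, 0.550 and 0.662 FPKM in OP, 2.48, 4.02 and 5.59 in HFD and 4.07, 3.68 and 4.94 in FA. For each of these 2 genes every high-fat library, with or without farrerol, was above every control. The log2 fold change in HFD against OP was 1.99 for ugt-16 (SE 0.31, limma adjusted p = 0.0055) and 1.72 for ugt-15 (SE 0.24, limma adjusted p = 0.00299).

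On the scale of FPKM means this was 4.28 times the control for ugt-16 and 8.21 times for ugt-15, the second from an OP mean under 1 FPKM. ugt-18 was more variable, at 1.13, 1.19 and 4.44 FPKM in OP, 0.808, 10.6 and 8.79 in HFD and 1.49, 5.54 and 15.6 in FA. HFD replicate 1 was the lowest of the 9 libraries for it. Its log2 fold change of 1.01 in HFD against OP did not pass (limma adjusted p = 0.516). The calls of ugt-1, ugt-15 and ugt-16 held under each of the 21 alternatives, at limma adjusted p of up to 0.0145, 0.0183 and 0.0297.

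ugt-33 and ugt-48 rose by less. ugt-33 was at 2.36, 1.68 and 2.27 FPKM in OP, 5.61, 8.02 and 7.26 in HFD and 4.08, 6.80 and 9.69 in FA, with no overlap between OP and either high-fat group. Its log2 fold change in HFD was 1.36 (SE 0.25, limma adjusted p = 0.012). ugt-48 was at 19.4, 14.7 and 15.5 FPKM in OP, 32.7, 25 and 31.9 in HFD and 26.6, 29.6 and 27.5 in FA, again with no overlap. Here the log2 fold change in HFD was 0.82 (SE 0.15, limma adjusted p = 0.0106), from the highest level of the 5 members that rose. Without OP replicate 2 both were no longer called, nor was ugt-33 without HFD replicate 2, with limma adjusted p of up to 0.063 for ugt-33 and 0.0625 for ugt-48. The span of ugt-48 runs from 5545669, and its exons overlap the end of cft-1, at 5545789 on the opposite strand. cft-1 reached 2.01 FPKM at most.

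The members that fell were ugt-30 and ugt-64. ugt-30 was low everywhere, at 2.54, 1.34 and 2.23 FPKM in OP, 0.694, 0.224 and 0.639 in HFD and 0.795, 0.905 and 0.625 in FA. Every control was above every high-fat library, and the log2 fold change in HFD was -0.99 (SE 0.22, limma adjusted p = 0.0252). ugt-64 had closely spaced controls at 22.5, 23.01 and 22.7 FPKM, with 15.6, 15.3 and 17.6 in HFD and 16.2, 15.8 and 17.3 in FA. Here too the groups were apart, with a log2 fold change of -0.47 (SE 0.11, limma adjusted p = 0.033). Both calls depended on the libraries and settings used: ugt-30 was lost without OP replicate 1, OP replicate 3, HFD replicate 2 or HFD replicate 3, with limma adjusted p of up to 0.102, and ugt-64 without any 1 of the OP or HFD libraries and with equal FPKM sums, with limma adjusted p of up to 0.136.

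**Figure D2:**
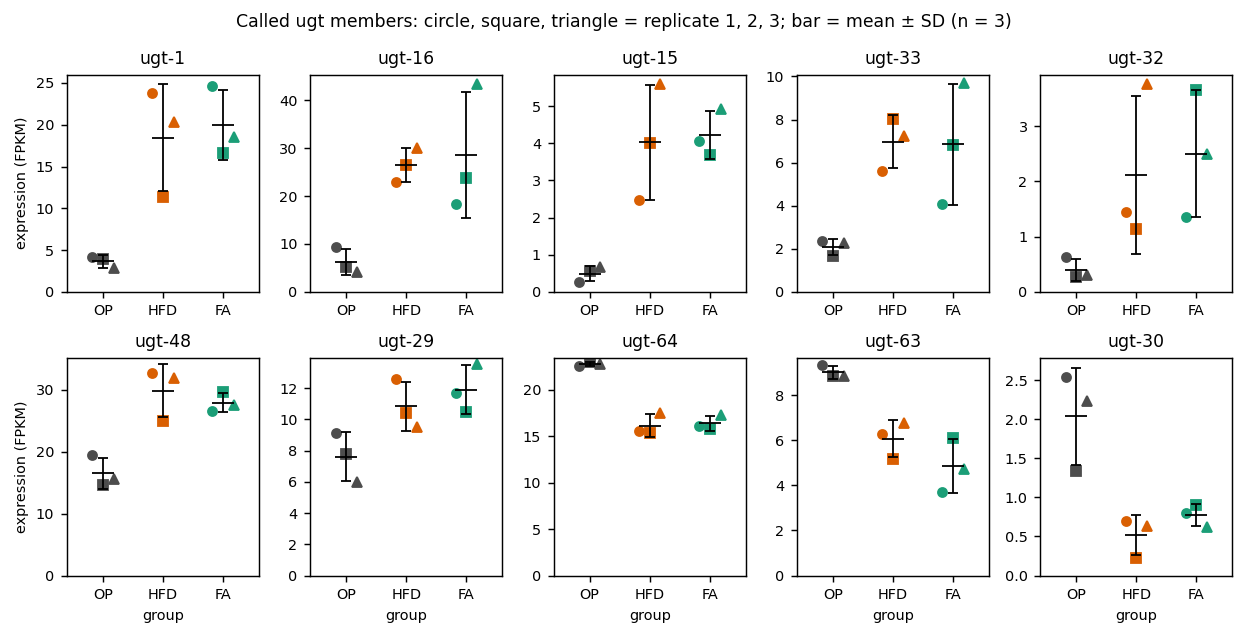
Each panel shows FPKM of a ugt member called in HFD or FA against OP, on its own axis from 0, with circle, square and triangle for replicates 1, 2 and 3 and the bar for mean ± SD of 3 libraries. In ugt-1, ugt-16, ugt-15, ugt-33, ugt-32, ugt-48 and ugt-29 the HFD and FA libraries are above the OP libraries, in ugt-64, ugt-63 and ugt-30 below them, and within every panel HFD and FA overlap.

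Several members with groups apart did not pass. ugt-35 had the widest difference of the 60 tested members, at 0.407, 0.184 and 0.0561 FPKM in OP, 4.04, 53.2 and 13.5 in HFD and 1.96, 8.67 and 59.8 in FA. Its controls rest on 14, 6 and 2 reads, and within HFD and FA the libraries ranged over more than a factor of 10. The log2 fold change in HFD was 3.71 (SE 1.003) with a limma adjusted p of 0.0506. That value moved between 0.00353 and 0.179 over the 21 alternatives and passed in 8 of them, among them the fit without HFD replicate 1. The span of aqp-6, an aquaporin gene on the opposite strand at 1.55 FPKM or less, ends at 10651997. That of ugt-35 runs from 10651995, so few bases are shared.

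ugt-37 and ugt-32 were also higher in every HFD library. ugt-37 was at 3.05, 3.13 and 2.24 FPKM in OP, 5.02, 11.4 and 6.12 in HFD and 3.57, 5.94 and 17.4 in FA, with a log2 fold change of 1.10 in HFD (SE 0.44, limma adjusted p = 0.173). Its span runs from 7141923, and its exons overlap the end of ugt-40, at 7141964 on the same strand. ugt-32 was at 0.624, 0.270 and 0.301 FPKM in OP, 1.45, 1.14 and 3.76 in HFD and 1.36, 3.66 and 2.5 in FA, with a log2 fold change of 1.07 in HFD (SE 0.33, limma adjusted p = 0.079). These levels are low, since 3 reads of a gene of 1 kilobase amount to 0.130 to 0.179 FPKM here.

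On the lower side stood ugt-46, ugt-17 and ugt-8. ugt-46 was at 24.3, 25.5 and 20.7 FPKM in OP, 19.8, 8.83 and 12.9 in HFD and 18.1, 15.7 and 12.9 in FA, with a log2 fold change of -0.79 in HFD (SE 0.24, limma adjusted p = 0.0789). ugt-17, the neighbour of ugt-47, was at 23.2, 15.2 and 16.9 FPKM in OP, 13.1, 7.39 and 11.4 in HFD and 15.2, 11.7 and 11.3 in FA, with a log2 fold change of -0.76 in HFD (SE 0.22, limma adjusted p = 0.0662). For ugt-8 the levels were 10.1, 13.2 and 11.2 FPKM in OP, 4.58, 7.46 and 9.94 in HFD and 3.98, 7.56 and 8.91 in FA, and the log2 fold change in HFD was -0.63 (SE 0.29, limma adjusted p = 0.229). HFD replicate 1 was nearest to the controls for ugt-46 and ugt-17 and farthest from them for ugt-8.

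Neighbouring members did not all move alike in HFD against OP. Each member of the ugt-18, ugt-16 and ugt-15 group had a log2 fold change above 0, 1.01 to 1.99, as had ugt-35 with ugt-34 (3.71 and 0.67) and ugt-43 with ugt-44 (0.36 and 0.71). Both members were below 0 in the pairs ugt-47 with ugt-17 (-0.60 and -0.76) and ugt-19 with ugt-20 (-0.49 and -0.12). Among the 6 tested members of the largest group 2 were above and 4 below 0, from -0.63 for ugt-8 to 0.41 for ugt-14. In the group of ugt-40, ugt-37, ugt-38, ugt-39, ugt-41 and ugt-36, 4 of 5 tested members were above 0, from -0.46 for ugt-39 to 1.10 for ugt-37. Of the 11 groups, 2 held a called member, those of ugt-1 and of ugt-16.

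Farrerol on top of the high-fat condition gave no member that passed the test. By limma 0 of the 60 members were called in FA against HFD, higher or lower, where 0% of all genes were called higher and 0.00679% lower, that is 1 of 14730. An unadjusted limma p under 0.05 was found for 1 of the 60, beside 2.5% of all genes. The log2 fold changes ran from -0.40 for ugt-35 to 0.39 for ugt-61, with a median of 0.048 beside -0.005 for all genes. The 95% interval of the difference lay within a factor of 2 in either direction on this scale for 56 of the 60, the exceptions being ugt-18, ugt-35, ugt-37 and ugt-44, and within a factor of 1.5 for 22 of them. The intervals of the others do not exclude a difference of more than a factor of 1.5. In the fit of reads by limma's voom the count of called members was also 0, as in each of the other alternatives.

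The members with the lowest p in FA against HFD were ugt-61, ugt-63, ugt-20, ugt-43 and ugt-55. ugt-61 was at 5.66, 5.06 and 5.18 FPKM in HFD and 6.16, 8.03 and 7.63 in FA, beside 6.66, 7.09 and 5.84 in OP. The change of ugt-61 in HFD against OP, -0.26 on the log2 scale, did not pass (limma adjusted p = 0.352). Every FA library was above every HFD library and reached the level of the controls. The log2 fold change was 0.39 (95% interval 0.07 to 0.71), with an unadjusted limma p of 0.0228 and an adjusted p of 1. ugt-20 likewise had no overlap, at 1.82, 2.33 and 1.90 FPKM in HFD and 2.75, 2.56 and 2.34 in FA, its OP libraries lying at 2.29, 1.95 and 2.62. Its log2 fold change was 0.24 (95% interval -0.12 to 0.60, limma adjusted p = 1). Such separation held for 2 of the 60 members, both higher in FA, where 5.1% of all genes had groups apart.

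ugt-63 was the member with the lowest p among those lower in FA, at 6.27, 5.16 and 6.76 FPKM in HFD and 3.72, 6.10 and 4.70 in FA, with a log2 fold change of -0.29 (95% interval -0.67 to 0.09). FA replicate 2 lay inside the HFD range. ugt-43 was at 1.61, 0.947 and 2.27 FPKM in HFD and 0.566, 1.26 and 1.33 in FA, a log2 fold change of -0.34 (95% interval -0.86 to 0.19). ugt-55 was at 0.685, 2.32 and 1.22 FPKM in HFD and 1.54, 2.19 and 2.05 in FA, a log2 fold change of 0.33 (95% interval -0.23 to 0.89). In these genes the groups overlapped. For the 5 members that rose on high fat the difference of FA from HFD was 0.15 for ugt-1, 0.10 for ugt-15, 0.02 for ugt-16, -0.07 for ugt-33 and -0.09 for ugt-48 on the log2 scale, with 95% intervals of -0.42 to 0.71, -0.43 to 0.63, -0.67 to 0.71, -0.63 to 0.49 and -0.41 to 0.24.

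**Figure D3:**
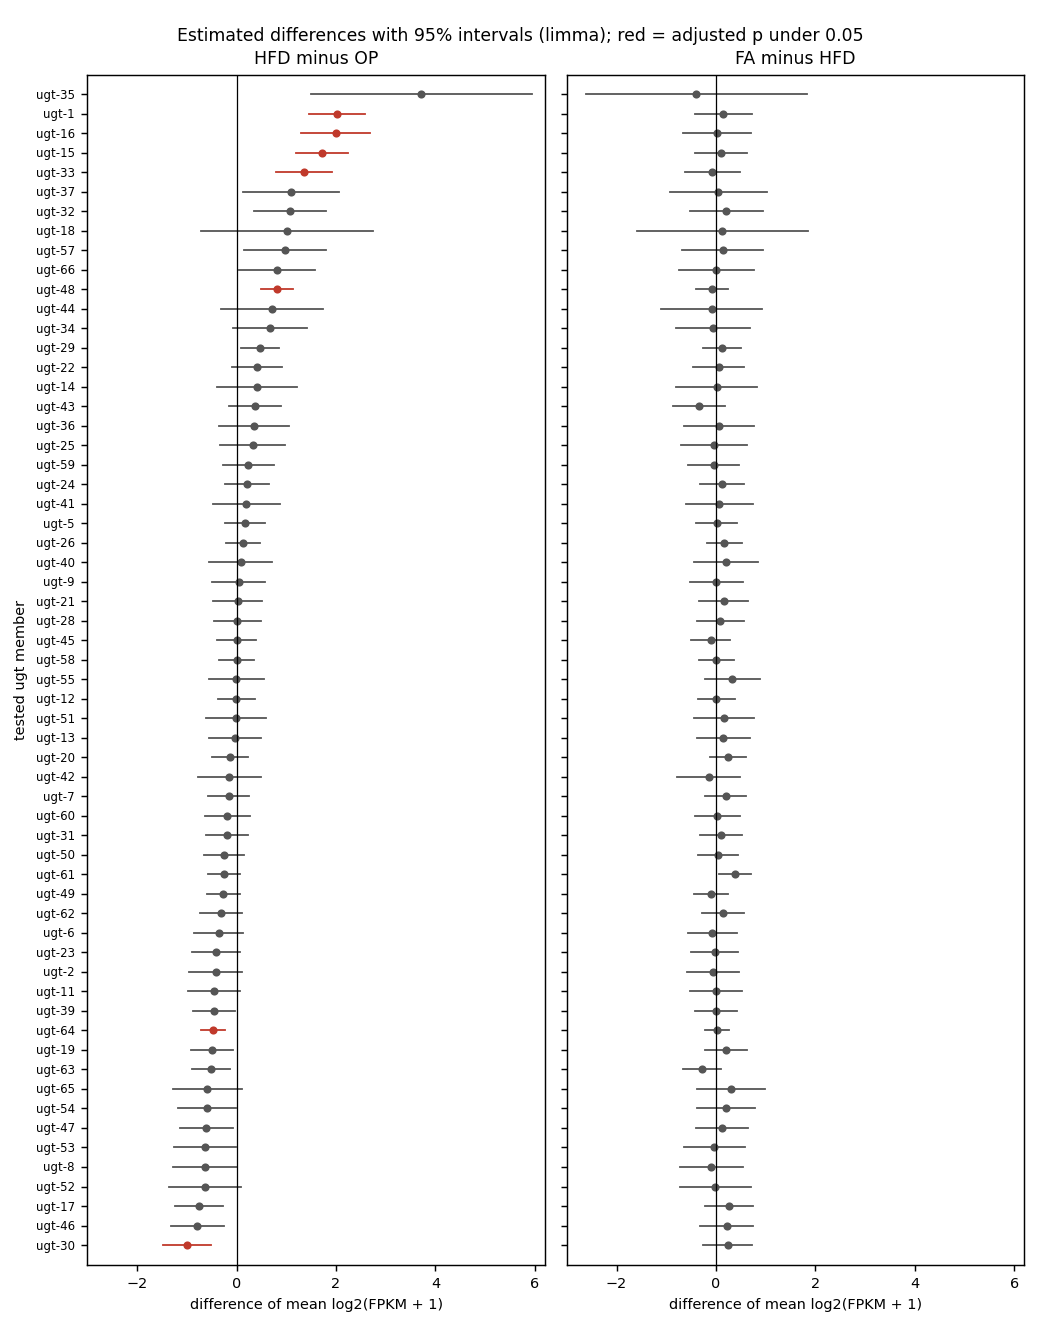
Points are differences of mean log2(FPKM + 1) with 95% intervals from limma for the 60 tested ugt members, HFD minus OP on the left and FA minus HFD on the right on the same axis, and red marks an adjusted p under 0.05. On the left 7 members are red, on the right 0, and every point on the right lies between -0.40 and 0.39.

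Animals on high fat with farrerol, set against the controls, showed 7 members called higher and 3 lower by limma. These are 11.7% and 5% of the 60 tested, beside 4.61% of all genes called higher in FA and 9.96% called lower. Counted in them are ugt-15, ugt-32 and ugt-30, which passed the filter only through libraries of the groups in which they are high. The all-gene shares rest on the same filter. Groups did not overlap for 22 of the 60, where 31% of all genes had groups apart. Counted here too are ugt-15, ugt-32 and ugt-30, and also ugt-35, which passed the filter in the same way. The comparison uses the same OP libraries as HFD against OP, so the results are not independent of each other, and all 7 members called in HFD were called in FA. The log2 fold changes in FA against OP were 2.17 for ugt-1, 1.81 for ugt-15, 2.01 for ugt-16, 1.28 for ugt-33, 0.73 for ugt-48, -0.76 for ugt-30 and -0.45 for ugt-64.

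Past the threshold in FA and not in HFD were ugt-32, ugt-29 and ugt-63, for none of which FA differed from HFD by the test. ugt-32, with the values given above, had a log2 fold change of 1.28 in FA against OP (SE 0.33, limma adjusted p = 0.0262), lost with no filter and without OP replicate 2 or 3 or FA replicate 2 or 3 (up to 0.105). ugt-29 was at 9.10, 7.78 and 5.996 FPKM in OP, 12.6, 10.4 and 9.54 in HFD and 11.7, 10.5 and 13.5 in FA, with every high-fat library above every control. Its log2 fold change was 0.59 in FA (SE 0.17, limma adjusted p = 0.044) and 0.46 in HFD (limma adjusted p = 0.142), and the call in FA passed under 8 of the 21 alternatives. It was lost without OP replicate 2 or 3, HFD replicate 2 or 3 or any 1 FA library, and also with no filter, with equal FPKM sums and with only the groups compared, at limma adjusted p of up to 0.193.

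ugt-63 had controls at 9.35, 8.84 and 8.84 FPKM, above all HFD and FA values already given. It fell by 0.80 on the log2 scale in FA against OP (SE 0.17, limma adjusted p = 0.0123). That call was kept without any 1 library, but limma adjusted p reached 0.0499 over the 21 alternatives, close to the threshold. The change of ugt-63 in HFD against OP, -0.51, did not pass (limma adjusted p = 0.107). ugt-30 passed in FA against OP under only 6 of the 21 alternatives. Its call was lost without OP replicate 1 or 3, HFD replicate 1 or 3 or any 1 FA library, with a pseudocount of 0.1 or 0.5, with either other filter on low values and with only the groups compared, at limma adjusted p of up to 0.145. ugt-64 lost its own without OP replicate 2 or 3 or FA replicate 1 or 2 and with equal FPKM sums (up to 0.102), and ugt-48 without OP replicate 2 (0.0507).

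Members with groups apart that did not pass in FA against OP included ugt-35, ugt-37 and ugt-26 on the higher side. Their log2 fold changes were 3.32, 1.14 and 0.29, with limma adjusted p of 0.0505, 0.115 and 0.263. ugt-26 was at 18.6, 18.1 and 12.6 FPKM in OP, 19.5, 17.6 and 16.3 in HFD and 21.1, 20.4 and 18.8 in FA. On the lower side ugt-8, ugt-52 and ugt-46 had log2 fold changes of -0.73, -0.65 and -0.57, with limma adjusted p of 0.124, 0.225 and 0.149. ugt-52 was at 2.22, 2.93 and 3.96 FPKM in OP, 0.955, 0.901 and 3.501 in HFD and 1.33, 2.07 and 1.26 in FA, where HFD replicate 3 stood apart from the other high-fat libraries.

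The 10 members called in either comparison with OP all lie on chromosome V, which holds 36 of the 60 tested members, a count made after the calls were seen. The share of all called genes that lies on chromosome V was not counted, so this is not shown to be particular to the family. They come from separate places on it, and ugt-15 and ugt-16 are the only neighbours among them.

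Within HFD and FA the family varied more between libraries than in OP. The median coefficient of variation of the tested members was 17.4% in OP, 28.4% in HFD and 27.7% in FA, and it exceeded 50% for 4, 12 and 8 members. Replicate 1 of HFD and replicate 1 of FA stood apart from the other libraries of their groups in the same members. For 22 members replicate 1 was the lowest library in HFD and again in FA, 36.7% of the 60 beside 12.97% of all genes. For 13 members it was the highest in both, 21.7% beside 13.2%.

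Low in replicate 1 of both groups were, besides ugt-35, ugt-18, ugt-44 and ugt-37, also ugt-14 and ugt-34. ugt-14 was at 0.756, 0.738 and 0.810 FPKM in OP, 0.571, 1.64 and 2.13 in HFD and 0.309, 1.79 and 2.65 in FA. ugt-34 was at 0.403, 0.516 and 0.389 FPKM in OP, 0.587, 2.33 and 1.27 in HFD and 0.353, 1.49 and 2.16 in FA. High in replicate 1 were ugt-47 and ugt-46, given above, and ugt-65, at 8.48, 6.199 and 6.56 FPKM in OP, 8.14, 3.32 and 2.88 in HFD and 7.72, 5.4 and 4.20 in FA. For ugt-34, ugt-47 and ugt-65 replicate 1 lay at or near the control range, and for ugt-14 it lay below it. In other members replicate 1 was the library farthest from the controls in both groups, as in ugt-1, ugt-2 and ugt-8, so replicate 1 was not uniformly nearer to OP.

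As a description, the deviation of HFD replicate 1 from its group mean and that of FA replicate 1 from its own correlated over the 60 members with a Pearson r of 0.907, and with 0.299 over all genes tested. Without ugt-35 and ugt-18, the members farthest out, r was 0.858, and 52 of 60 members deviated in the same direction in the 2 libraries. HFD replicate 2 and FA replicate 3 also deviated together, with r of 0.809 over the members. Deviations from a group mean cancel out within the group, so this r is not independent of that for replicate 1. The points share their libraries and the depth of these libraries, and replicate 1 was the shallowest of each group. Summed intestine markers in replicate 1 were 7561 FPKM in HFD and 6171 in FA, in the middle of their groups. For oocyte and eggshell markers replicate 1 was the highest of both groups, at 295 in HFD (others 213.8 and 242.8) and 262.4 in FA (125.2 and 145). Germline and sperm markers were also highest there, at 705.9 in HFD (618.5 and 652.2) and 729.7 in FA (511.4 and 551.7). No other marker set had replicate 1 highest in both groups or lowest in both groups. What sets the replicates apart was not tested.

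With both of these libraries left out, an alternative chosen after the values were seen, limma called 14 members in HFD against OP, where 8.13% of all genes were called, 18 in FA against OP, where 17% were, and 0 in FA against HFD, where 0% were. Among the 14 were 6 of the 7 called with all libraries, ugt-64 being lost, and ugt-17, ugt-18, ugt-34, ugt-35, ugt-44, ugt-46, ugt-47 and ugt-65 were added. The 14 hold ugt-15, ugt-30, ugt-34 and ugt-35, and the 18 hold ugt-14, ugt-15, ugt-32, ugt-34 and ugt-35. Each of these passed the filter only through the groups in which it is high. The libraries were left out because members deviated in them, so a narrower spread and more calls can follow from that choice.

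**Figure D4:**
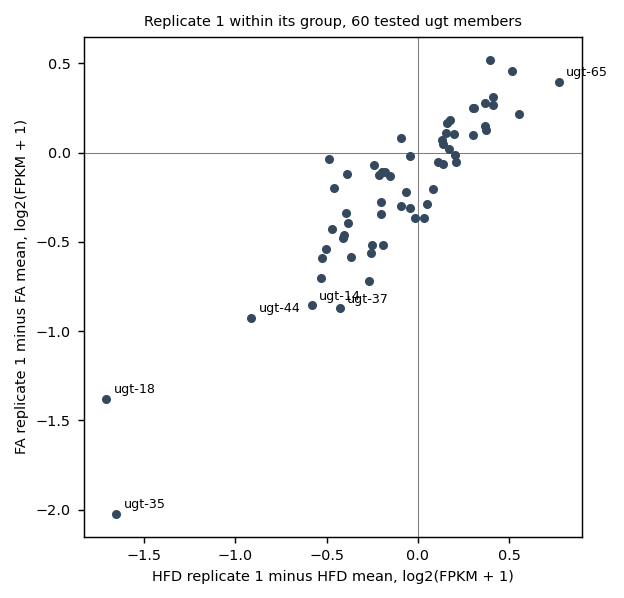
Each point is a tested ugt member, with the deviation of HFD replicate 1 from the HFD mean on the horizontal axis and that of FA replicate 1 from the FA mean on the vertical axis, both in log2(FPKM + 1). The points run along the diagonal (r = 0.907 over 60 members), with ugt-35 and ugt-18 farthest down and ugt-65 farthest to the right.

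Genes listed under UDP-sugar supply, not all of which make the sugar donor itself, gave few calls. Of 7 genes listed for UDP-sugar supply, all tested, 0 were called in HFD against OP by limma, 2.74% of all genes being called higher and 4.62% lower. sqv-4, the UDP-glucose dehydrogenase that makes UDP-glucuronate, was at 67.5, 65.1 and 60.7 FPKM in OP, 54.4, 53.1 and 46.5 in HFD and 46.3, 46.6 and 41.3 in FA. Every high-fat library was below every control. The log2 fold change was -0.32 in HFD (limma adjusted p = 0.131) and -0.52 in FA against OP (limma adjusted p = 0.0152), the latter being the only call in this list. It is 14.3% of the 7, where 9.96% of all genes were called lower in FA against OP.

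Among 14 tested regulators of detoxification genes, 1 fell in HFD against OP and 0 rose. The 1 lower is 7.14% of the 14, where 4.62% of all genes were called lower and 2.74% higher. The regulator that fell was nhr-8, a nuclear receptor needed for resistance to toxins and for sterol balance in C. elegans. It was at 16.02, 13.5 and 15.1 FPKM in OP, 7.11, 5.09 and 6.48 in HFD and 5.89, 5.99 and 6.22 in FA. Its log2 fold change was -1.14 in HFD (limma adjusted p = 0.00202) and -1.17 in FA against OP (limma adjusted p = 0.0013). The transcript of skn-1, the stress factor that drives many detoxification genes, had a log2 fold change of -0.09 in HFD (limma adjusted p = 0.763). In FA against OP cky-1, a transcription factor with bHLH and PAS domains, was called higher as well (0.85, limma adjusted p = 0.0349). In that comparison 1 regulator was called higher and 1 lower, 7.14% each, where 4.61% of all genes were called higher and 9.96% lower.

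Of 27 tested export pumps, ABC transporters of the pgp, mrp and haf families, 1 was called in HFD against OP, mrp-3, which fell by 0.72 on the log2 scale (limma adjusted p = 0.0391). That is 3.7% of the 27, where 4.62% of all genes were called lower. Other enzymes of detoxification gave, in HFD against OP, 5 higher and 5 lower of 51 tested cytochrome P450 genes and 13 higher and 2 lower of 44 tested glutathione S-transferase genes, beside the 5 higher and 2 lower of 60 in the UDP-glucuronosyltransferases. These are 9.8% and 9.8% of the first family, 29.5% and 4.55% of the second and 8.33% and 3.33% of the third, where 2.74% and 4.62% of all genes were called. The median log2 fold change was 0.04 for the first of these families, 0.38 for the glutathione S-transferases and 0.0007 for the UDP-glucuronosyltransferases. Whether the families differ was not tested. In FA against HFD 0 members of any of these lists and families were called, and in FA against OP the counts were 6 higher and 6 lower, 17 higher and 0 lower, and 7 higher and 3 lower, where 4.61% and 9.96% of all genes were called.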

How the data were processed

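RNA was sequenced from whole C. elegans in 9 libraries, 3 in each of OP, HFD and FA. Total RNA was taken by a chloroform method and libraries were made with an NEBNext Ultra II kit, per the labels' protocols, and WBcel235 is the build per the submitters' processing notes. For the aligner, the counter and the strand setting, nothing is given in the sources used here. The authors deposited FPKM values per gene with gene length, name and biotype, per the file headers. Multiplied by gene length, these values came out as whole reads (within 0.01) in 100% of non-zero entries, which gave the reads per library; other columns of values per sample numbered 0. The library size implied by the FPKM values was not the sum of these reads. It was 17748003 against 20056071 reads in FA replicate 2 and 23047890 against 20166991 in FA replicate 3. How that size was set is not given. Pairs of libraries of a group differed beyond counting noise, with a chi-square per gene of 17 to 117.

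Tests used limma 3.58.1 in R 4.3.3 with a mean-variance trend on log2(FPKM + 1), a pseudocount of 1, in a model of 3 group means over all 9 libraries. Fold changes on this scale understate the change of low genes. Genes at 1 FPKM or more in at least 3 libraries were tested, two-sided, with Benjamini-Hochberg adjustment over all 14730. The test was tried on simulated data. Members and lists were chosen with earlier results of these data known. Values were given for members called in any comparison, the 5 of highest mean, up to 3 per comparison and direction with groups apart but not called, and the 5 of lowest p in FA against HFD; others are named as neighbours or examples seen in the data. Positions were checked against the Ensembl annotation of WBcel235. Of the listed pathway symbols 3 (pgm-1, ugd-1 and pxr-1) were not matched, and ssu-1, the sulfotransferase listed, did not reach the level for testing. Protein and promoter sequences were not analysed here, so similarity between members, which decides whether reads can be shared, was not measured.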

Additional observations from a re-analysis of the deposited data

How the results depend on the processing

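There were 21 alternatives, 20 planned and 1 added after the values were seen. In 0 of them did the log2 fold change of a member followed by name change sign. Counted over these members, comparisons and alternatives, a call was lost 63 times, gained 37 times and unchanged 719 times. Against 7 called members in HFD against OP (5 higher, 2 lower), leaving out 1 library gave 4 to 10 (3 to 7 higher, 0 to 4 lower). It gave 6 to 12 in FA against OP (4 to 10 higher, 1 to 3 lower), against 10 (7 and 3), and 0 in FA against HFD. The lowest counts in HFD against OP came without OP replicate 2 or HFD replicate 2 (4 each), the highest without HFD replicate 1 or FA replicate 1 (10 each); in FA against OP the highest came without FA replicate 1 (12). The calls over all genes moved too, from 1083 in HFD against OP to 280 (OP replicate 2 left out), 319 (HFD replicate 2), 692 (HFD replicate 1) and 1480 (FA replicate 1), and from 2146 in FA against OP to between 967 (OP replicate 2) and 2536 (FA replicate 1). A limma adjusted p under 0.01 left 3 in HFD against OP (3 higher, 0 lower), where 1.83% of all genes passed. In FA against OP it left 5 (0 lower), where 5.55% of all genes passed. Voom on recovered reads called 10 members in HFD against OP, 4 of them lower, where 8.4% of all genes were called. Without HFD replicate 1 and FA replicate 1 the counts were 14 in HFD against OP (9 higher, 5 lower) and 18 in FA against OP (14 higher). Of all genes 8.13% and 17% were then called. The cause was not tested. The median log2 fold change of the family in HFD against OP was near 0 throughout, from -0.094 to 0.064 with 1 library left out. Labels do not say whether equal replicate numbers mark paired libraries. Deviations of same-numbered libraries had r of -0.227 to 0.299 over all genes. The highest, of HFD replicate 1 with FA replicate 1, was also the highest of any pair. HFD replicate 2 had its highest r, 0.157, with FA replicate 3. Deviations from a group mean cancel out within the group, so these r are not independent of each other. With the replicate number as a block, 7 members were called in HFD against OP (ugt-64 lost, ugt-17 gained), where 5.68% of all genes were. In FA against OP 10 were called (ugt-29 and ugt-30 lost, ugt-8 and ugt-35 gained), where 12.7% of all genes were. In FA against HFD 0 were called, where 0% of all genes were. With 3 libraries a group, the 95% interval of the difference in FA against HFD stayed within a factor of 1.5 for 22 of the 60 members. This holds on the scale of log2(FPKM + 1), and for members of low level the interval in FPKM itself can be wider.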
